A study of Mus musculus with 18 samples.

Results

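ATP-dependent chromatin remodelers are the subject here, and 10 of them were followed across 18 single mouse 2-cell embryos: Smarca4, Smarca2, Arid1a, Smarcb1, Smarca5, Chd1, Chd4, Ino80, Ep400 and Hells. They were taken by gene symbol from the platform annotation, each through its probe set that names no other gene, and they are 10 of 19936 genes with a probe set of their own. Each of the 10 genes had exactly 1 such probe set. Smarca5 was also named together with other genes by 3 further probe sets and Ino80 by 12, and these were not used. All 10 probe sets were bright, meaning that their mean log2 value over the 18 embryos was at or above 6.47, the median of the means of all 28815 probe sets.

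Chromatin remodelers use the energy of ATP to slide, evict or exchange nucleosomes, and so set which DNA other proteins can reach. They fall into families by their motor subunit: SWI/SNF complexes open chromatin at promoters and enhancers, ISWI complexes space nucleosomes, CHD enzymes act in transcribed genes or, within the NuRD complex, together with histone deacetylases, and INO80-type complexes exchange histone variants. In the mouse zygote and 2-cell embryo the paternal genome has just exchanged protamines for histones and the embryo starts its own transcription, while much of the remodeler mRNA and protein was laid down in the oocyte.

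Each embryo was collected after natural mating in the 129SVE (=129S6/SvEvTac, Taconic) background, its RNA was amplified with a NuGen WT-Ovation One-Direct kit, and it was read on 1 Affymetrix mouse gene array. The 9 WT embryos had wild-type mothers and 3 wild-type fathers (WT1, WT2 and WT3), with 3 embryos per father. The 9 Parg(110)-/+ embryos also had wild-type mothers, and their 3 fathers (PargA, PargB and PargC) were Parg(110)-/-, with 3 embryos per father; the embryos carry 1 copy of Parg that lacks exons 2 and 3. Parg encodes poly(ADP-ribose) glycohydrolase, which strips this polymer off proteins, and the study asked whether a disturbed poly(ADP-ribose) metabolism in the father goes along with altered expression in the embryo. Genotype belongs to the father, so what the embryo inherited as a genotype and what its father's sperm brought along cannot be told apart, and the genotypes differ by 3 fathers against 3. An embryo is written as its father and its number, as in PargB-1. A value is the normalized level of a transcript in a whole embryo. The cells of an embryo therefore cannot be told apart, and its total amount of RNA cannot be read from the value.

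The arrays were close in scale, with medians of log2 values between 6.34 and 6.53. The medians tended to be higher in Parg(110)-/+ embryos, from 6.44 (PargC-3) to 6.53 (PargB-3), than in WT embryos, from 6.34 (WT2-1) to 6.49 (WT1-3). Correlations across probe sets lay between 0.924 and 0.958 for pairs of arrays. The stage label was checked against markers: 17 of 17 measured maternal oocyte genes and 8 of 9 measured 2-cell genes (transcripts listed as typical of this stage) were bright. The 2-cell list held 21 names, and those not measured had no probe set of their own or repeated a gene. Of markers of other cells, 4 of 10 for sperm and spermatids, 3 of 10 for cumulus, granulosa and oviduct cells and 1 of 8 for blood cells were bright. The mean level of the sperm list was 5.83 to 6.13 in WT and 5.95 to 6.20 in Parg(110)-/+ embryos, that of the cumulus list 5.96 to 6.23 and 6.09 to 6.56, and that of the blood list 5.34 to 5.60 and 5.51 to 5.66. The group mean was higher in Parg(110)-/+ embryos for 10 of 10, 8 of 10 and 8 of 8 of these genes, none of them called, as it was for 19337 of all 28815 probe sets. Their part in the results was not tested. PargB-1 stood apart from the other 8 Parg(110)-/+ embryos in the number of probe sets that differed from the WT embryos. Several results that rest on it, though not all, are therefore also given without it, some only with a second embryo left out too.

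Promoters are shown for the 4 remodelers whose levels were most closely tied to each other from embryo to embryo, as described further on: Smarca4 with Smarca2, and Smarca5 with Chd4. The sequences are from RefSeq on GRCm38.p6 and read 5′ to 3′ on the strand of the gene. Of the 250 bases before a start site, those that lie ahead of the whole annotated gene are given. They come from chr9:21615919-21616105 (plus strand) for Smarca4, chr19:26604910-26605072 (plus) for Smarca2, chr8:80739460-80739709 (minus) for Smarca5 and chr6:125095731-125095979 (plus) for Chd4. Capitals mark the GC box GGGCGG, the motif bound by Sp1-type factors, on either strand.
Smarca4: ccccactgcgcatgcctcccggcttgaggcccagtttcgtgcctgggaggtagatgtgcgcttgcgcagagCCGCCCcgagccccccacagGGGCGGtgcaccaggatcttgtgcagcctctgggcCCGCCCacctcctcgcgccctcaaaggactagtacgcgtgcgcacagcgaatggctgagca
Smarca2: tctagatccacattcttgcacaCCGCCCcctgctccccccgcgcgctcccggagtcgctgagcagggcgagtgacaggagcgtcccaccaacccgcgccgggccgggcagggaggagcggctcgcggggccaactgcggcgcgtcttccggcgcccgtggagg
Smarca5: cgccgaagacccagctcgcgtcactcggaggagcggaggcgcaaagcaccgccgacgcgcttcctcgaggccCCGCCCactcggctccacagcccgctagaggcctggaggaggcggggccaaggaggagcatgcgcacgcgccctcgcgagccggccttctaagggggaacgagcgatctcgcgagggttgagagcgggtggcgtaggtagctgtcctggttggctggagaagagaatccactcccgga
Chd4: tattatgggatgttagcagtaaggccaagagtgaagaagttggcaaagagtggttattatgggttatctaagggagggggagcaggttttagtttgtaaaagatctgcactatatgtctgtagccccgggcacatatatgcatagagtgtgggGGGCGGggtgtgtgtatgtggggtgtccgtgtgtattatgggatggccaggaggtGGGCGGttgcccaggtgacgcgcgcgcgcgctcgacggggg
In the table used, 9 of the 10 remodelers had an entry (Chd1 had none), with 11 promoters among them. A GC box stood in the 250 bases before the start in 11 of these 11 promoters, against 32.7% of all 32851 promoters. The TATA box TATAAA stood in 0 of 11, against 12.4% of all promoters, and the CCAAT box CCAAT in 2 of 11, against 33.8%, each searched on both strands. CpG dinucleotides numbered 12 to 33 in the 250 bases, against a median of 6 over all promoters. These motif matches are descriptions of sequence and not of binding.

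The genotype comparison asked whether remodeler transcripts differ in the offspring of Parg(110)-/- males. With limma and adjustment over all 28815 probe sets, 0 of the 10 remodelers were called at an adjusted p under 0.1, and neither was any other probe set (0% called). At an unadjusted p under 0.05 there were 2 of 10 remodelers, Smarca4 and Ino80, both with the lower mean in Parg(110)-/+ embryos, where 10.5% of all probe sets passed. The group mean was higher in Parg(110)-/+ embryos for 5 remodelers and lower for 5, with a median difference of -0.03 on the log2 scale against 0.05 over all probe sets. The adjusted p of the 10 genes lay between 0.434 and 0.985.

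**Figure D1:**
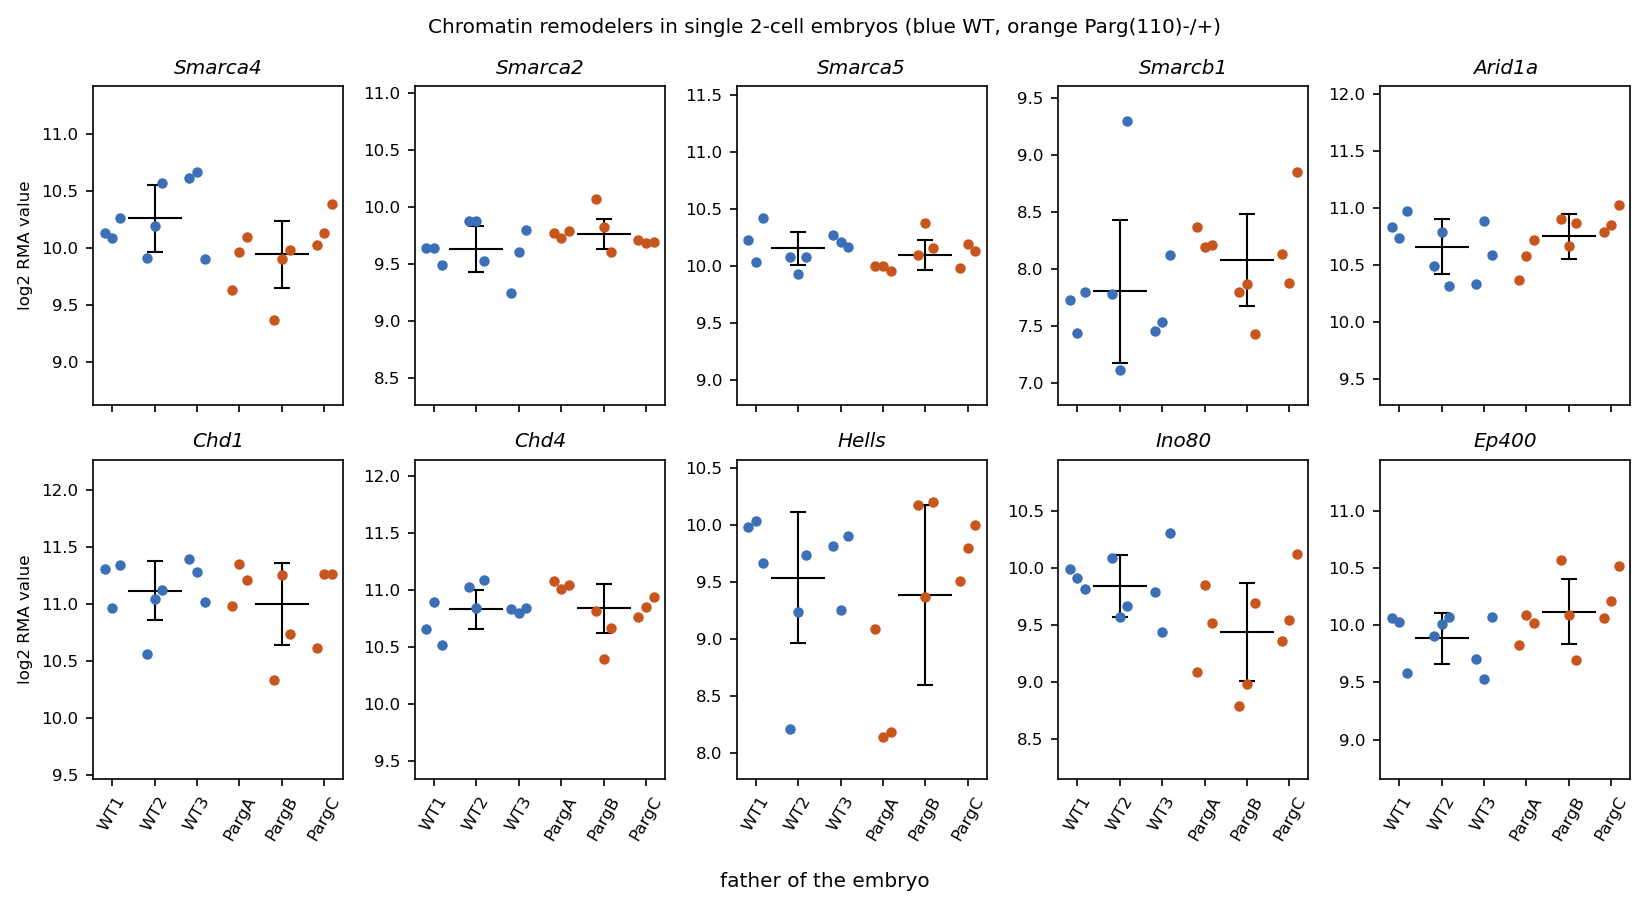
Deposited log2 RMA values (vertical axes, each spanning the same number of log2 units) of the 10 remodelers in 18 single 2-cell embryos, by father (horizontal axis). Each point is 1 embryo, blue for WT and orange for Parg(110)-/+, and the black bar with whiskers is the mean ± SD of the 9 embryos of a genotype; the groups overlap in every panel, Smarcb1 and Hells range widest, and Hells is low in all 3 embryos of PargA, 2 of them together with WT2-1 at the bottom.

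Smarca4 (BRG1, chr9:21616106-21704230) is the SWI/SNF motor that the oocyte supplies to the early embryo. Its log2 level ran from 9.90 over a median of 10.19 to 10.67 in WT embryos and from 9.37 over 9.98 to 10.38 in Parg(110)-/+ embryos. The groups overlapped, with 8 of 9 Parg(110)-/+ embryos below the WT mean and the 3 highest embryos, WT3-2, WT3-1 and WT2-3, all WT. The means were 10.26 ± 0.29 and 9.94 ± 0.29 (SD, n = 9 each), a difference of -0.32 ± 0.13 (SE, 95% interval -0.60 to -0.03; limma unadjusted p = 0.0304, adjusted p = 0.447). PargB-1 was the lowest embryo of all, and without it the difference was -0.24.

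Smarca2 (BRM, chr19:26605073-26778321) is the other motor of SWI/SNF, which takes the place of Smarca4 in part of the complexes. It ran from 9.25 over 9.64 to 9.88 in WT and from 9.61 over 9.73 to 10.07 in Parg(110)-/+ embryos. The highest value of all belonged to PargB-1 and the lowest to WT3-1, with overlap between them. The difference was 0.13 ± 0.08 (SE, 95% interval -0.04 to 0.30; adjusted p = 0.562), the opposite sign to that of Smarca4, and 8 of 9 Parg(110)-/+ embryos lay above the WT mean. Within the fathers PargA and PargC the 3 embryos were close together, with SDs of 0.03 and 0.01, while those of PargB had an SD of 0.23.

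Arid1a (BAF250A, chr4:133679008-133756769), the DNA-binding subunit of the BAF form of SWI/SNF, ran from 10.31 over 10.73 to 10.97 in WT and from 10.37 over 10.79 to 11.02 in Parg(110)-/+ embryos. The groups covered almost the same span. The difference was 0.09 ± 0.10 (SE, 95% interval -0.12 to 0.31; adjusted p = 0.744).

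Smarcb1 (SNF5, chr10:75896769-75921614), a core subunit of SWI/SNF, varied more than the other 3 SWI/SNF genes of the 10. It ran from 7.11 over 7.73 to 9.29 in WT and from 7.43 over 8.13 to 8.85 in Parg(110)-/+ embryos, a 4.54-fold range over all 18. Both ends were embryos of 1 wild-type father, WT2-2 at the bottom and WT2-3 at the top. The difference between the genotypes was 0.28 ± 0.24 (SE, 95% interval -0.22 to 0.78; adjusted p = 0.669). It came to 0.46 without WT2-3 and to 0.18 without PargC-3, the second highest embryo.

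Smarca5 (SNF2H, chr8:80699943-80739459), the motor of the ISWI complexes, was the steadiest of the 10. It ran from 9.94 over 10.17 to 10.43 in WT and from 9.96 over 10.10 to 10.38 in Parg(110)-/+ embryos, a 1.41-fold range over all 18. The difference was -0.06 ± 0.07 (SE, 95% interval -0.20 to 0.09; adjusted p = 0.76), so that the interval holds no difference beyond 0.20 log2 units in either direction. Of bright probe sets, 11.7% had a smaller SD over the 18 embryos than Smarca5, against 72.3% for Smarcb1 and 82.5% for Hells.

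Chd1 (chr17:15704967-15772612), a remodeler of actively transcribed genes that keeps chromatin of pluripotent cells open, ran from 10.56 over 11.13 to 11.40 in WT and from 10.34 over 11.21 to 11.35 in Parg(110)-/+ embryos. The low values were shared by both genotypes: PargB-1 was lowest, followed by WT2-1 and PargC-1. The difference was -0.11 ± 0.14 (SE, 95% interval -0.41 to 0.19; adjusted p = 0.772), and -0.03 without PargB-1.

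Chd4 (Mi-2β, chr6:125095980-125130591), the motor of the NuRD complex, ran from 10.51 over 10.84 to 11.09 in WT and from 10.39 over 10.85 to 11.08 in Parg(110)-/+ embryos. The ranges nearly coincided. The difference was 0.01 ± 0.09 (SE, 95% interval -0.19 to 0.20; adjusted p = 0.985), and its sign turned with the scaling of the arrays (-0.05 with equal array medians).

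Ino80 (chr2:119373042-119478685), the motor of the INO80 complex, which slides nucleosomes and removes the histone variant H2A.Z, ran from 9.44 over 9.81 to 10.31 in WT and from 8.79 over 9.52 to 10.12 in Parg(110)-/+ embryos. The 4 lowest embryos were all Parg(110)-/+ (PargB-1, PargB-2, PargA-1 and PargC-1), yet PargC-3 was the second highest of 18, so the groups overlapped. The means were 9.84 ± 0.27 and 9.44 ± 0.43 (SD, n = 9 each), a ratio of 0.756. The difference of -0.40 ± 0.16 (SE, 95% interval -0.75 to -0.06; limma unadjusted p = 0.0239, adjusted p = 0.434) was the farthest from 0 of the 10. It was -0.32 without PargB-1 and -0.49 without PargC-3, and 7 of 9 Parg(110)-/+ embryos lay below the WT mean.

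Ep400 (p400, chr5:110664373-110770927), the motor of the TIP60-p400 complex, which places H2A.Z in nucleosomes, ran from 9.53 over 10.01 to 10.08 in WT and from 9.69 over 10.09 to 10.57 in Parg(110)-/+ embryos. The 5 highest embryos, PargB-1, PargC-3, PargC-2, PargB-2 and PargA-2, were Parg(110)-/+, and the rest of that group lay among the WT embryos. The difference was 0.23 ± 0.12 (SE, 95% interval -0.01 to 0.48; adjusted p = 0.493), and 0.18 without PargB-1.

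Hells (LSH, chr19:38930262-38970470), an SNF2-type helicase needed for DNA methylation of repeats, had the largest SD of the 10, 0.67 over all embryos. It ran from 8.21 over 9.73 to 10.03 in WT and from 8.14 over 9.51 to 10.20 in Parg(110)-/+ embryos. The 3 lowest embryos were PargA-2, PargA-3 and WT2-1, about 1 log2 unit below all others except PargA-1 at 9.09. The difference between the genotypes, -0.15 ± 0.31 (SE, 95% interval -0.81 to 0.50; adjusted p = 0.87), changed sign when either of 2 fathers was left out, to 0.31 without PargA and to 0.03 without WT1.

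**Figure D2:**
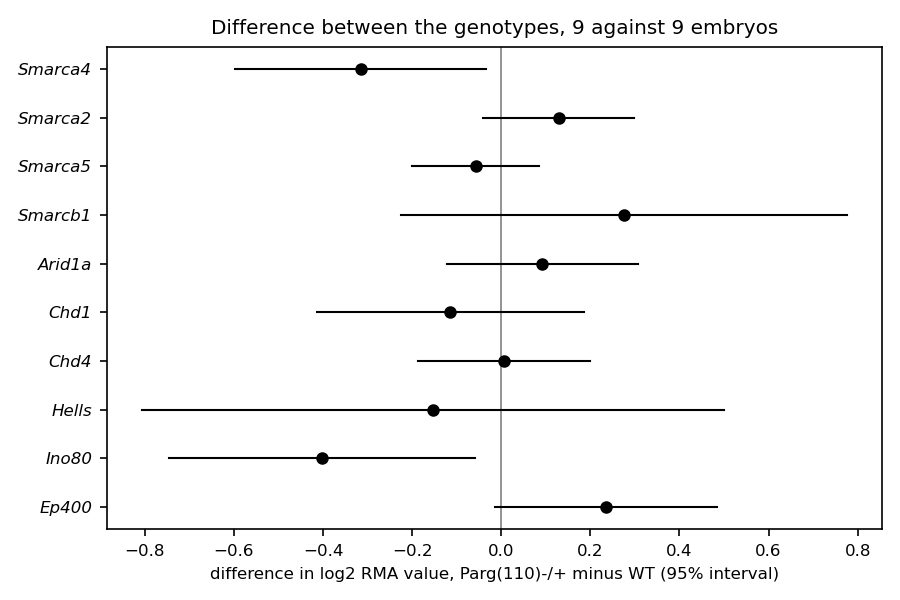
Difference in log2 RMA value between 9 Parg(110)-/+ and 9 WT embryos (horizontal axis, Parg(110)-/+ minus WT) for each remodeler, with the 95% interval of the limma fit. The intervals of Smarca4 and Ino80 lie below 0, those of the other 8 cross it, and none of the 10 passed after adjustment.

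The other genes of these complexes gave a like picture. Of 100 measured genes in 5 lists, 0 were called between the genotypes and 7 had an unadjusted p under 0.05, 3 with higher and 4 with lower means in Parg(110)-/+ embryos. The median differences were -0.04 for 25 SWI/SNF subunits (3 genes under 0.05) and -0.01 for 13 ISWI subunits (2). They were 0.07 for 18 genes listed under CHD and NuRD (0) and 0.01 for 29 subunits of INO80, SRCAP and TIP60-p400 (1). For 15 genes listed as other SNF2-type ATPases the median was -0.05 (1), and for all probe sets 0.05. Rbbp4 and Rbbp7, which are also subunits of NuRD, were counted under ISWI only. The last list also holds Cdca7, which is not itself an ATPase.

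Among SWI/SNF subunits the smallest p belonged to Ss18l1 (CREST), the neuronal partner of the complex, with a difference of 0.57 ± 0.15 (SE; adjusted p = 0.362) and 9 of 9 Parg(110)-/+ embryos above the WT mean, followed by Dpf1 at 0.14 ± 0.06 and Bcl7a at -0.51 ± 0.22. Among ISWI subunits they were Rbbp4, a histone chaperone, at -0.56 ± 0.16 (adjusted p = 0.362), Baz2a, the partner of Smarca5 in silencing of ribosomal DNA, at -0.17 ± 0.07 with 9 of 9 embryos below the WT mean, and Rsf1 at 0.35 ± 0.17. Those of the CHD and NuRD list, Hdac1 (-0.17 ± 0.08), Cdk2ap1 (0.13 ± 0.06) and Chd5 (0.10 ± 0.06), did not reach an unadjusted p of 0.05. Meaf6, a subunit of TIP60, had a difference of 0.84 ± 0.34 (adjusted p = 0.427), ahead of Vps72, an H2A.Z chaperone (0.45 ± 0.24), and Yy1 (0.25 ± 0.15) in its list. Of the other SNF2-type ATPases, Btaf1, which removes TBP from DNA, differed by -0.39 ± 0.17, Atrx by 0.13 ± 0.07 and Smarcal1 by -0.28 ± 0.22 (SE).

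The study looked at the offspring of each Parg(110)-/- father separately, so the 3 embryos of each were set against the 9 WT embryos, which the 3 comparisons share. For PargA, 0 of 10 remodelers were called (0% of all probe sets) and 1 had an unadjusted p under 0.05 (5.32% of all), which was Hells. For PargB, 0 of 10 were called (0.0139% of all) and 2 had an unadjusted p under 0.05 (12.8%), Smarca4 and Ino80. For PargC, 0 of 10 were called (0.0104%) and 1 had an unadjusted p under 0.05 (7.24%), Ep400. No remodeler was on that list for more than 1 father, though Smarca4 in PargA lay close to the limit (limma unadjusted p = 0.062). The share of all probe sets on it for more than 1 father was not computed, so nothing is read from this about the remodelers.

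The level of Hells was 9.09, 8.14 and 8.18 among PargA embryos, 10.17, 9.37 and 10.20 among PargB embryos and 9.51, 9.80 and 9.996 among PargC embryos. The embryos of PargA thus lay below those of both other Parg(110)-/- fathers with no overlap. The share of all probe sets in which 1 father stands apart in this way was not computed, so nothing more is read from it. Against WT the differences were -1.07 ± 0.33 (SE; adjusted p = 0.862) for PargA, 0.38 ± 0.33 for PargB and 0.23 ± 0.33 for PargC.

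Ino80 measured 9.09, 9.84 and 9.52 in PargA, 8.79, 8.98 and 9.69 in PargB and 9.36, 9.55 and 10.12 in PargC embryos. The 3 fathers overlapped. The differences from WT were -0.36 ± 0.22, -0.69 ± 0.22 (SE; adjusted p = 0.264) and -0.16 ± 0.22, all below 0, and that of PargB was -0.50 without PargB-1. Smarca4 differed by -0.36 ± 0.18, -0.51 ± 0.18 (adjusted p = 0.294) and -0.08 ± 0.18, with PargB at -0.32 without PargB-1. Ep400 differed by 0.09 ± 0.17, 0.23 ± 0.17 and 0.38 ± 0.17 (adjusted p = 0.658 in PargC), all above 0.

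Whether embryos of different fathers of 1 genotype differ was asked with limma's F test. Among the WT fathers 0 of 10 remodelers were called (0.00347% of all probe sets) and 0 had an unadjusted p under 0.05 (4.39%), the smallest being 0.0637 for Chd4. Among the Parg(110)-/- fathers 0 of 10 were called (0.0104%) and 2 had an unadjusted p under 0.05 (5.34%): Hells (F = 9.53, unadjusted p = 0.00257, adjusted p = 0.772) and Chd4 (F = 6.73, unadjusted p = 0.00927, adjusted p = 0.85).

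Levels of Chd4 were 11.08, 11.01 and 11.04 among PargA embryos, 10.81, 10.39 and 10.67 among PargB embryos and 10.76, 10.85 and 10.94 among PargC embryos. PargA embryos stood above all 6 others of that genotype, and here too the share of all probe sets that do so was not computed. Against WT, the differences of Chd4 were 0.21 ± 0.11 for PargA and -0.21 ± 0.11 for PargB (SE), of opposite sign, and 0.02 ± 0.11 for PargC, which stands beside a genotype difference close to 0. Of the 100 other remodeler genes, 0 were called between fathers in either genotype, with 6 and 8 at an unadjusted p under 0.05 in WT and Parg(110)-/- fathers.

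Each Parg(110)-/+ embryo was also set against the 9 WT embryos, with the spread taken from the WT embryos, and each WT embryo against the other 8 as background. Of 90 tests of a remodeler in a Parg(110)-/+ embryo 0 were called (0.865% of all tests over these embryos) and 10 had an unadjusted p under 0.05 (7.22%). In the WT embryos 1 of 90 was called (0.731%) and 7 had an unadjusted p under 0.05 (5.81%). The one called was Smarcb1 in WT2-3, at 1.68 ± 0.30 above the other WT embryos (SE; limma adjusted p = 0.0755). That call was lost when any of WT1-1, WT1-2, WT1-3, WT2-1, WT3-1 or WT3-2 was left out (limma adjusted p between 0.116 and 0.146) and among bright probe sets alone (0.117).

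PargB-1 held 4 of the 10 tests under 0.05. Its Ino80 lay -1.05 ± 0.27 from the WT mean (SE; adjusted p = 0.123), Smarca4 -0.89 ± 0.29, Chd1 -0.78 ± 0.26 and Ep400 0.69 ± 0.23, the last 3 with adjusted p of 0.263, 0.272 and 0.266. Among the 18 embryos it was lowest in 3 remodelers and highest in 2. PargB-1 stood apart over all probe sets as well, as said above. Its share of all probe sets under 0.05, or at either end of the 18, is not given here. Neither count is therefore read as a trait of the remodelers. The remaining tests were Ino80 in PargA-1 (-0.75) and PargB-2 (-0.86), Hells in PargA-2 (-1.40) and PargA-3 (-1.36), Chd4 in PargB-2 (-0.44) and Ep400 in PargC-3.

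The 100 other remodeler genes were called in 16 of 900 tests in single Parg(110)-/+ embryos (1.78%, against 0.865% of all such tests) and in 6 of 900 in single WT embryos (0.667%, against 0.731%). The difference between these shares was not tested. The calls in Parg(110)-/+ embryos rest on the spread of the WT embryos alone. None of them remained with a common spread over both genotypes. For Meaf6 the SD was 0.20 in WT and 1.04 in Parg(110)-/+ embryos. The calls in WT embryos were Mbd3 (1.63 ± 0.22, in WT1-1), Actl6a (1.63 ± 0.23, in WT2-3), Rad54l (3.06 ± 0.59, in WT3-1) and Mbd2 (1.83 ± 0.32, in WT3-2) with higher levels, and Btaf1 (-0.88 ± 0.14, in WT2-2) and Chd8 (-1.22 ± 0.19, in WT3-1) with lower ones. Meaf6 was above the WT embryos by 1.31 ± 0.21 in PargA-3, 3.22 ± 0.21 in PargB-2 and 1.16 ± 0.21 in PargB-3 (SE; limma adjusted p = 0.0307, 7.45e-05 and 0.0512). In PargB-1 the AAA+ ATPase Ruvbl1 (-1.76 ± 0.32) and the deubiquitinase Uchl5 (-2.17 ± 0.42), which sit in INO80 together with Ino80, fell below WT, as did Btaf1 (-1.40 ± 0.31) and the SWI/SNF subunit Bcl7c (-0.76 ± 0.17). Bcl7c (-1.11 ± 0.17), Brd7 (-0.86 ± 0.17) and Phf10 (-2.73 ± 0.56), SWI/SNF subunits as well, were lower in PargB-3. In PargC-2 the SWI/SNF subunits Smarcc2 (1.11 ± 0.21) and Ss18 (1.07 ± 0.18) and the helicase-like Hltf (1.28 ± 0.16) were higher. Shprh, a ubiquitin ligase with an SNF2 domain, was higher in PargA-1 (1.48 ± 0.23) and Gatad2b, a NuRD subunit, lower in PargA-3 (-0.93 ± 0.13). Hdac1, a histone deacetylase of NuRD, was lower in PargB-1 (-0.57 ± 0.14) at an adjusted p just under the threshold.

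The spread between the 9 embryos of each genotype was compared because single embryos may vary. It mixes differences between the 3 fathers with variation among the offspring of 1 male. The SD of the log2 level was larger in Parg(110)-/+ than in WT embryos for 6 of 10 remodelers, with a median ratio of 1.12 against 1.02 over all probe sets and 1.03 over bright ones. The ratio was highest for Ino80 (1.60, SDs 0.43 and 0.27) and lowest for Smarcb1 (0.642, SDs 0.40 and 0.63) and Smarca2 (0.655, SDs 0.13 and 0.20). Limma on absolute deviations called 0 of 10 (0.0763% of all) and 0 had an unadjusted p under 0.05 (9.02%). A variance ratio test, added after seeing the data, also called 0 of 10 (6.04% of all).

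From embryo to embryo, some remodelers moved against each other. All 45 pairs of the 10 were correlated over the 18 embryos, with a median r of 0.02, and 3 pairs passed an adjusted p under 0.1 for r over the 45 pairs (permutation test with 100000 resamples, two-sided); embryos of 1 father were permuted like any others. The 2 closest pairs were negative, one between the alternative motors of SWI/SNF and one between the motors of ISWI and NuRD. The share of pairs of other genes that reach such an r was not computed, so these pairs are not shown to be particular to remodelers.

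Smarca4 and Smarca2 had r = -0.77 (permutation p = 0.00033, adjusted p = 0.00832) and rho = -0.69 (permutation p = 0.00201, adjusted p = 0.0904). The relation was present within each genotype, at r = -0.72 in WT and -0.76 in Parg(110)-/+ embryos, and was -0.71 without PargB-1 and WT3-2, the embryos farthest from the median of Smarca4. PargB-1 held the lowest Smarca4 and the highest Smarca2 of all 18, and WT3-1 the second highest Smarca4 and the lowest Smarca2.

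Smarca5 and Chd4 had r = -0.75 (permutation p = 0.00037, adjusted p = 0.00832) and rho = -0.65 (permutation p = 0.00436, adjusted p = 0.0981). It was -0.71 in WT and -0.82 in Parg(110)-/+ embryos. Without WT1-3 and PargB-2, which had the highest Smarca5 and the lowest Chd4, r was -0.50, so part of the relation rests on those embryos. Their whole ranges are narrow, 0.49 log2 units for Smarca5 and 0.70 for Chd4.

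Smarca4 and Chd1 had r = 0.64 (permutation p = 0.00401, adjusted p = 0.0601) and rho = 0.60 (permutation p = 0.00947, adjusted p = 0.142). The correlation was 0.67 in WT and 0.64 in Parg(110)-/+ embryos and 0.44 without PargB-1 and WT3-2. Smarca2 with Chd1 (r = -0.59, rho = -0.53, permutation p = 0.0104 and 0.0264, adjusted p = 0.117 and 0.236) and Smarca2 with Ep400 (r = 0.57, rho = 0.43, permutation p = 0.0145 and 0.0742, adjusted p = 0.131 and 0.317) did not pass.

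**Figure D3:**
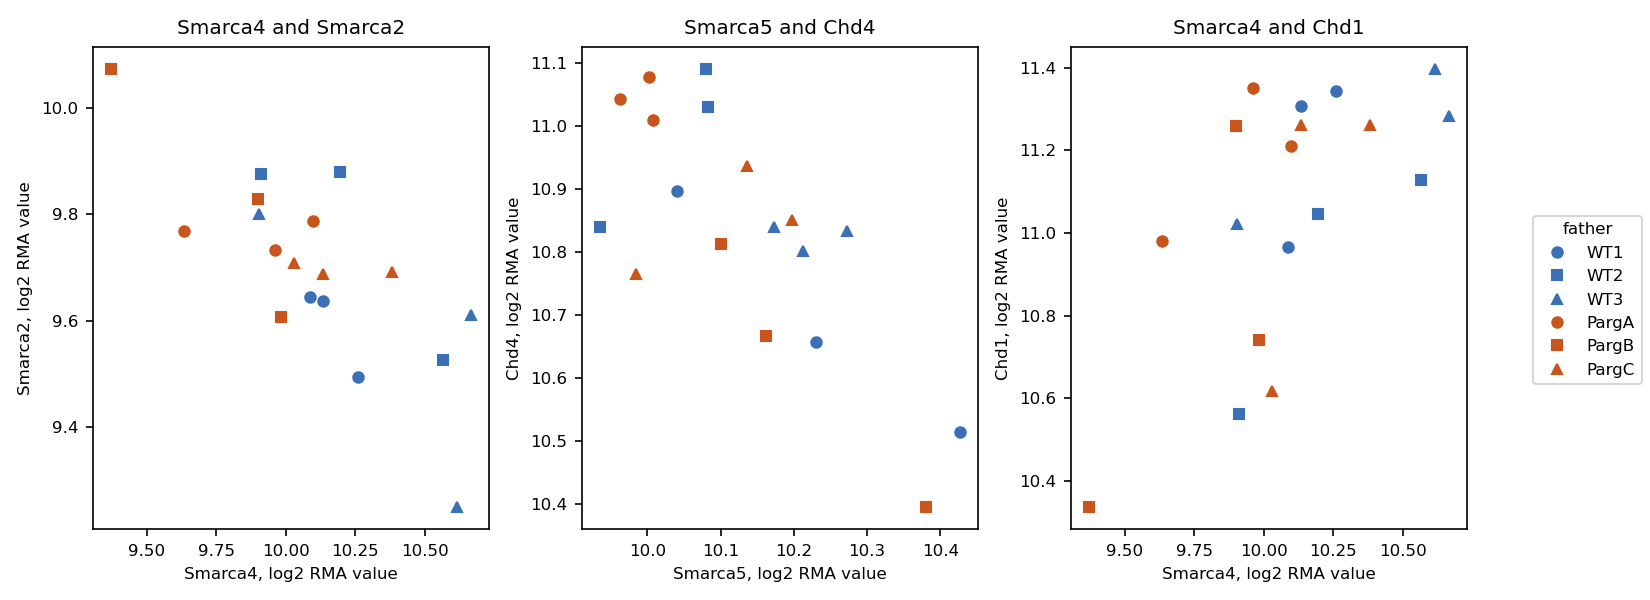
Log2 RMA values of pairs of remodelers in the 18 embryos, 1 point per embryo, coloured by genotype (blue WT, orange Parg(110)-/+) and shaped by father. Smarca2 is low where Smarca4 is high (r = -0.77), Chd4 is low where Smarca5 is high (r = -0.75), and Chd1 is high where Smarca4 is high (r = 0.64).

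The 2-cell score of an embryo is the mean, over the 8 bright 2-cell genes, of the log2 value minus its mean over all embryos, and ran from -0.99 in WT2-3 to 1.07 in PargB-1. Its slope was tested in a model that also held genotype. None of the 10 remodelers was called (0 of 10, against 0.236% of all probe sets), while 3 of 10 had an unadjusted p under 0.05 (9.68% of all). Of bright probe sets, to which the 10 belong, 2045 of 14408 had an unadjusted p under 0.05. The slope of Smarca2 was 0.20 ± 0.05 per unit of score (SE; limma unadjusted p = 0.0012, adjusted p = 0.151). Smarca4 and Chd1 had slopes of the opposite sign, -0.26 ± 0.10 (adjusted p = 0.405) and -0.25 ± 0.11 (adjusted p = 0.48).

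The slope of Smarca2 was 0.22 within WT and 0.18 within Parg(110)-/+ embryos, and 0.16 without PargB-1 and WT2-1, which had the highest scores. Without these embryos the slope of Smarca4 was -0.13 and that of Chd1 -0.03. Of the 100 other remodeler genes 0 were called and 12 had an unadjusted p under 0.05, led by Ruvbl1 at -0.69 ± 0.17 (SE; adjusted p = 0.137).

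With a score over 17 maternal oocyte genes in place of the 2-cell genes, 0 of 10 remodelers were called (0.0521% of all probe sets). An unadjusted p under 0.05 was found for 3 of 10 (11.5% of all probe sets, and 2250 of 14408 bright ones). Smarca2 was among these 3 remodelers, at 0.70 ± 0.21 per unit of score (SE, limma unadjusted p = 0.00433, adjusted p = 0.22). The others were Ep400 at 0.88 ± 0.34 (adjusted p = 0.332) and Hells at -1.98 ± 0.93 (adjusted p = 0.435). Smarca4 (-0.66 ± 0.42) and Chd1 (-0.72 ± 0.45) did not reach that level. WT2-1 and PargB-1 had the highest values of this score too (0.30 and 0.29). Slopes on the maternal score without these embryos were not computed.

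**Figure D4:**
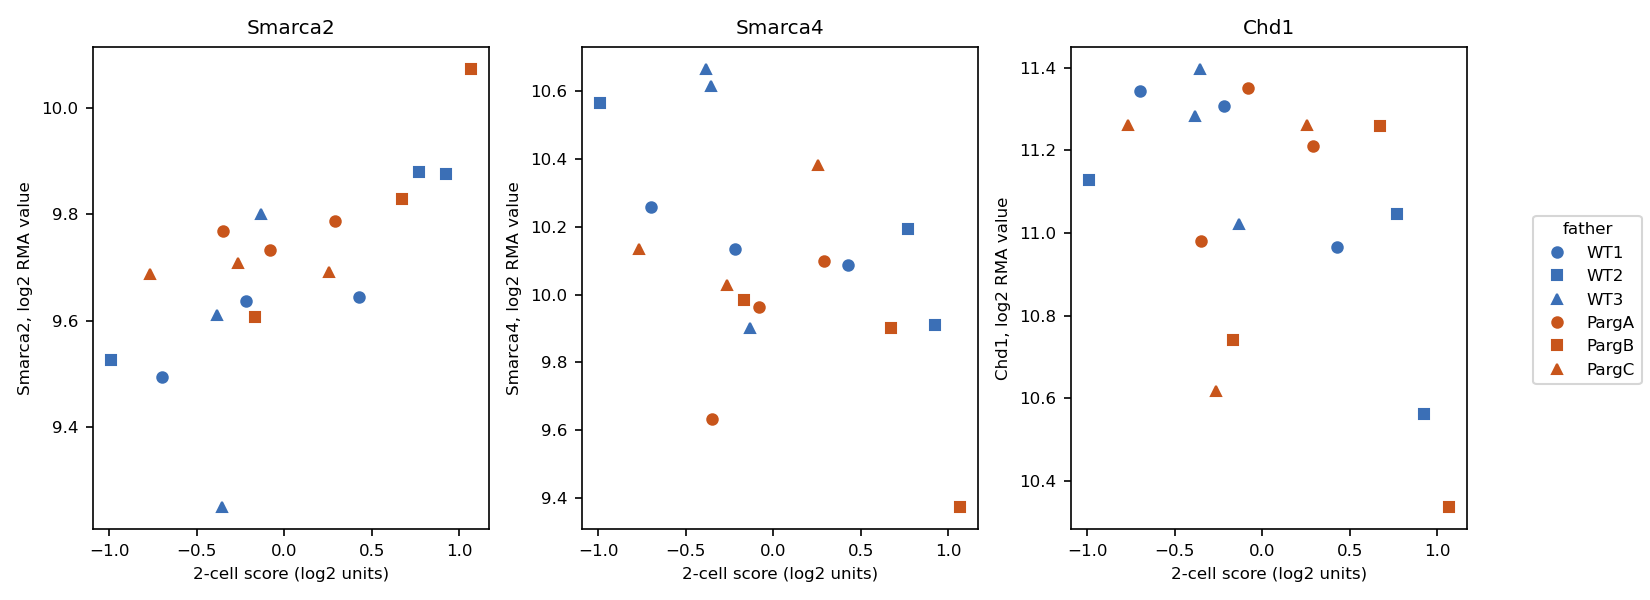
Log2 RMA values of Smarca2, Smarca4 and Chd1 (vertical axes) against the 2-cell score (horizontal axis, log2 units) in the 18 embryos, 1 point per embryo, coloured by genotype (blue WT, orange Parg(110)-/+) and shaped by father. Smarca2 is higher at high scores, and the lowest Smarca4 and Chd1 values belong to PargB-1, the embryo with the highest score.

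For each remodeler, the genes with the most similar pattern over the 18 embryos were picked by Pearson's r among 10254 other genes with a bright probe set of their own; being the best of so many, these r are descriptions only. They were Med20 (r = 0.82), Gpd2 (0.78) and Nbn (0.76) for Smarca4, and Gyg (0.90), Rras2 (0.86) and Ube2d3 (0.86) for Smarca2. Arid1a was closest to Ptprs (0.78), Tpbgl (0.77) and Nradd (0.75), and Smarcb1 to Tpra1 (0.81), Zcwpw1 (0.79) and Lmtk2 (0.78). Smarca5 was closest to Tmem258 (0.74), Srsf1 (0.73) and Fam163b (0.72). For Chd1 they were Mtf2 (0.82), Rbm34 (0.81) and Lst1 (0.80), and for Chd4 Cops5 (0.75), Stard13 (0.73) and Tet3 (0.72). Ino80 went with Wdr77 (0.77), Ptpn1 (0.77) and Zdhhc5 (0.77), Ep400 with Gas2l3 (0.83), Smim14 (0.82) and Lrrc4 (0.80), and Hells with Vps18 (0.76), Lamtor1 (0.74) and Mad2l2 (0.73). The 10 remodelers were not among the genes compared, so none of them could be picked. None of these 30 genes is 1 of the 100 other remodeler genes. Those are few among the 10254 genes compared, so nothing is read from this.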

How the data were processed

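RNA of 18 single 2-cell embryos was measured, 1 array per embryo. The authors deposited log2 values from RMA, run in Partek Genomics Suite, which corrects the background, normalizes by quantiles and sums probes up into probe sets; the versions are not given in the sources used here. Quantile normalization can reduce a change shared by most genes, and differences of dim genes are compressed. No depth applies to arrays, and precision is limited by how many embryos and fathers there were. Genes were named from the platform annotation, and genome positions are those of RefSeq on GRCm38.p6.

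All 28815 probe sets were fitted with limma 3.58.1 (lmFit, eBayes, two-sided) in R 4.3.3 and adjusted by Benjamini-Hochberg; a call is an adjusted p under 0.1, as in the methods of the study. The residual degrees of freedom were 8 where a Parg(110)-/+ embryo was set against 9 WT embryos and 7 where a WT embryo was set against the other 8, with the single embryo taken to have the same spread as WT embryos. The fits were tested on simulated data. Pairs of remodelers were tested by permutation of embryos.

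The remodelers and the gene lists (SWI/SNF, ISWI, CHD and NuRD, INO80-type, other SNF2-type ATPases, and stage and cell type markers) were chosen with earlier results of these data known. Beyond the 10 remodelers, the text names every list gene called in a comparison, for the genotype comparison the 3 bright genes of each list with the smallest p, for the score the gene with the smallest p, and the 3 genes most like each remodeler. Alternatives were array scaling, a filter on dim probe sets, other tests, and leaving out embryos or fathers.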

Additional observations from a re-analysis of the deposited data

Results flagged for a closer look

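In groups of 9 embryos, the gap of the lowest or highest value to its neighbour was set against the whole range of the group, and 3 of 20 groups passed the 95% limit of Dixon's test; chance flags about 1 in 20 groups. Smarca2 in Parg(110)-/+ embryos was highest in PargB-1, at 10.0727 on the log2 scale, with the next embryo at 9.83. Smarcb1 in WT embryos was highest in WT2-3, at 9.29315, with the next at 8.12. Hells in WT embryos was lowest in WT2-1, at 8.20935, with the next at 9.23. What lies behind these 3 values was not tested.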

How the results depend on the processing

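The count of called remodelers stayed at 0 of 10 under all alternatives run between the genotypes, for each father and between fathers. The same held in the spread and with the 2-cell score. For each of these comparisons the alternatives covered equal array medians, a second quantile normalization, a fit on bright probe sets and leaving out each embryo. For the genotype comparison alone they also covered the plain one-way test, father as a random block, means per father, array weights and leaving out each father. In single Parg(110)-/+ embryos the count ran from 0 to 1 over the embryos left out: Chd1 in PargB-1 was called without WT2-1 (adjusted p = 0.06), and Ino80 in PargB-1 without WT3-2 (-1.10, adjusted p = 0.0838) and without WT3-3 (-0.995, adjusted p = 0.0966). In single WT embryos it was 2 after a second quantile normalization, with Hells in WT2-1 as the second, 0 on bright probe sets alone, and from 0 to 2 over the embryos left out. Smarcb1 in WT2-3 had adjusted p from 0.0319 to 0.146 without other WT embryos, and 0.117 on bright probe sets.

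The difference of Chd4 between the genotypes turned to -0.0503 with equal array medians, -0.0660 without father WT1 and -0.0959 without PargA, and ran from -0.0338 to 0.0617 over the embryos left out. That of Hells turned to 0.0256 without father WT1 and 0.305 without PargA, and ran from -0.319 to 0.00301 over the embryos left out. The other 8 remodelers kept their sign, Smarca4 between -0.43 and -0.22 and Ino80 between -0.52 and -0.26. The r of Smarca4 and Smarca2 lay between -0.81 and -0.63 over scalings and embryos left out, that of Smarca5 and Chd4 between -0.81 and -0.44, and that of Smarca4 and Chd1 between 0.47 and 0.69; these alternatives and the variance ratio test were chosen after seeing the data. Counts over all probe sets moved more: that ratio test called 1739 and deviations from the median 0, against 22 in the spread, and with the 2-cell score 228 were called on bright probe sets and 6 without the 2 embryos farthest out, against 68. Of single embryo tests, 0 were called with one spread over both genotypes against 2242, and between the genotypes 1792 probe sets had an unadjusted p under 0.05 with equal array medians against 3018. The mean of all probe sets of a gene could not be run as an alternative, since each remodeler has 1. No paired analysis was possible because the embryo numbers count embryos within a father and each father belongs to 1 genotype. The causes of these changes were not tested. In simulated data the spread test recovered few changed genes, so its count of 0 says little.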
